A study of Mus musculus with 11 samples.

Results

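The transcripts described here encode enzymes of mitochondrial fatty acid oxidation: Cpt1a, Cpt2, Acadvl, Acadl, Acadm, Acads, Etfb, Hadha, Hadhb and Acaa2. They were found as all probe sets that the array's annotation table pairs with 1 of these 10 gene symbols. This gave 13 of the 12488 probe sets on the array, for 9 of the 10 genes; no probe set was paired with Hadha, which is not analysed here. The RNA came from 3T3-L1 cells, a mouse fibroblast line that can be turned into adipocytes in culture. The labels do not say whether these cells had been differentiated. They received 0.1% DMSO as vehicle (3 arrays, replicates 1, 2 and 4), pioglitazone at 20 µM (2 arrays, replicates 1 and 2), rosiglitazone at 1 µM (3 arrays, replicates 1, 2 and 4) or troglitazone at 20 µM (3 arrays, replicates 1, 2 and 4), all for 24 h. The array titles have 1 form for replicates 1 and 2 and another for replicate 4. These are called set 1 and set 2 here, and set 2 has no pioglitazone array. The drugs are thiazolidinediones, agonists of the nuclear receptor PPARγ. Nothing in the labels says that replicates are separate cultures, so p-values measure the spread between these samples, which may be technical.

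Fatty acids are broken down in the mitochondrion in a repeating cycle. Cpt1a, on the outer membrane, joins a long-chain acyl group to carnitine, the carrier Slc25a20 moves it across the inner membrane, and Cpt2 hands it back to coenzyme A. Acyl-CoA dehydrogenases for very long (Acadvl), long (Acadl), medium (Acadm) and short (Acads) chains take the first oxidation step and pass electrons to the electron transfer flavoprotein, of which Etfb is the beta subunit. The trifunctional protein, with its Hadha and Hadhb subunits, carries out the later steps on long chains, and the thiolase Acaa2 cleaves acetyl-CoA from shorter ones. Adipocytes mainly store fat, and PPAR receptors are textbook regulators of several of these genes.

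Transcripts of this pathway were higher after drug treatment in a minority of tests, and none was called lower. With pioglitazone 4 of the 9 genes rose (Cpt2, Acaa2, Hadhb and Etfb), with rosiglitazone 3 rose (Acaa2, Hadhb and Acadm) and with troglitazone 2 rose (Acaa2 and Hadhb). Here "rose" and "fell" mean an adjusted p under 0.05 in limma over all 11739 tested probe sets. The share of all tested probe sets called higher was 0.63% with pioglitazone, 0.784% with rosiglitazone and 0.775% with troglitazone, and the share called lower 0.273%, 0.571% and 0.554%. At an unadjusted p under 0.05, 7, 6 and 3 of the 9 genes were higher with these drugs. Beside them 429, 440 and 356 of all 7962 genes tested were higher, and 4.84%, 5.16% and 4.02% of all tested probe sets. Of the 13 probe sets 1, the dimmer one of Etfb, was lower at that threshold with pioglitazone and with troglitazone. Of all 11739 tested, 588 and 505 were lower with these 2 drugs. The median log2 difference from vehicle over the 9 genes was 0.84, 0.53 and 0.31 for these drugs in that order, beside −0.08, −0.01 and −0.03 over all 7962 genes tested. The 3 comparisons share the vehicle arrays. All 13 probe sets passed the filter on dim signals, which asked for a signal over 73.7, called the floor below, on at least 2 arrays.

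The number of these calls depended on single arrays and on the model. With pioglitazone 2 genes were called without vehicle replicate 1 or without pioglitazone replicate 1. With rosiglitazone 1 was called without vehicle replicate 4 or without rosiglitazone replicate 4, and with troglitazone 1, Hadhb, was called under each of 8 of the 11 omissions of 1 array. Calls over all tested probe sets fell as well. With pioglitazone they fell from 0.903% to 0.421% without vehicle replicate 1. With rosiglitazone they fell from 1.35% to 0.634% and 0.762% for the omissions named. With troglitazone they fell from 1.33% to between 0.616% and 1.14% under those 8 omissions. When the prior variance did not follow the mean signal, no gene was called with any drug, and 6, 6 and 19 probe sets in all were called with pioglitazone, rosiglitazone and troglitazone.

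**Figure D1:**
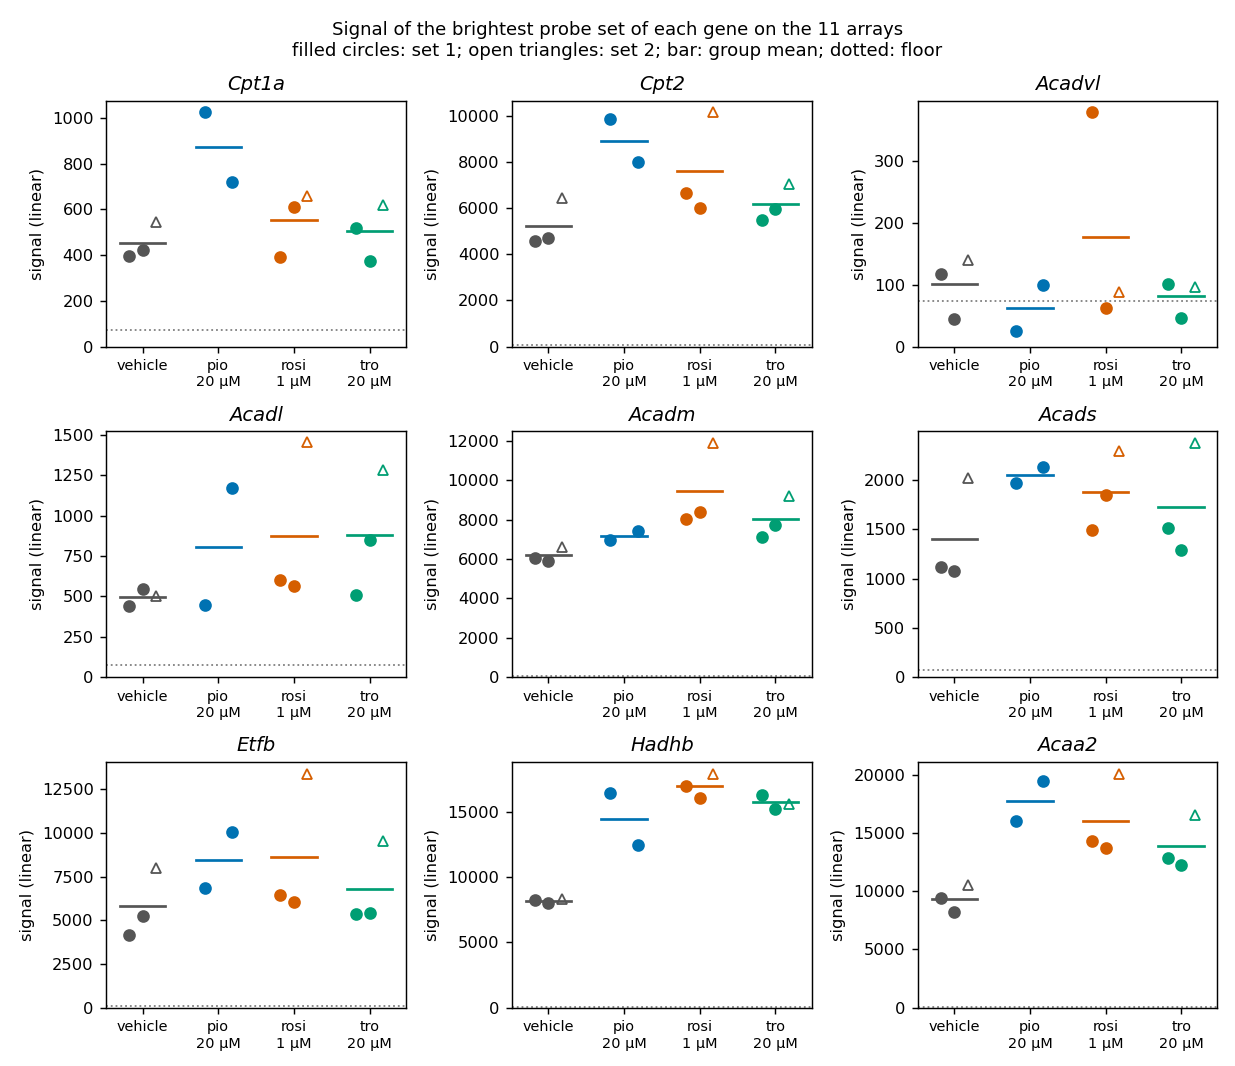
Signal on a linear scale (vertical axis, arbitrary units as deposited) of the brightest probe set of each of the 9 genes on the 11 arrays, by group; filled circles are set 1, open triangles set 2, horizontal bars group means and the dotted line the floor of 73.7. Hadhb and Acaa2 lie above all vehicle arrays on every treated array, while Acadvl straddles the floor.

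Upstream sequences of 3 genes are shown because their calls differed: Hadhb rose with each drug, Cpt2 with pioglitazone and Acadm with rosiglitazone. They are the 250 bases before the gene start, 5′ to 3′ on the gene's strand, from RefSeq (GRCm38.p6), whose promoter table matched 9 of the 10 genes, all but Acaa2. Capitals mark the Sp1 box GGGCGG (in Hadhb and Cpt2) and the nuclear receptor core motif AGGTCA read on the opposite strand (in Acadm).
Hadhb, chr5:30155003-30155252, plus strand: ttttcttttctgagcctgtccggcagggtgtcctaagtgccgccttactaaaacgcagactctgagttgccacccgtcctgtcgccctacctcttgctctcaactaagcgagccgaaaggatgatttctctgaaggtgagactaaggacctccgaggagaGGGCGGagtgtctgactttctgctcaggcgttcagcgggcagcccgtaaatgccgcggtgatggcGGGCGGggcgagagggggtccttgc
Cpt2, chr4:107923590-107923839, minus strand: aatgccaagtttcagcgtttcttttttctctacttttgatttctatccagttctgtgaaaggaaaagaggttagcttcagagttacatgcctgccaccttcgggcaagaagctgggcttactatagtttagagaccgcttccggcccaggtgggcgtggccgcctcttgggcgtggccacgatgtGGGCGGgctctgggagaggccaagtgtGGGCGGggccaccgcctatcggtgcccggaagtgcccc
Acadm, chr3:153944644-153944893, minus strand: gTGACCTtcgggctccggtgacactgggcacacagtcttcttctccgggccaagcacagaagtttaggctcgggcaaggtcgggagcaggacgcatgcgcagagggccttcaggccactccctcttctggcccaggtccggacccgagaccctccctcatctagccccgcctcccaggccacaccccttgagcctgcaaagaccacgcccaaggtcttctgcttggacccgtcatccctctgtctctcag
Both strands of each window, from 250 bases before to 50 after the start, were searched for exact letters. AGGTCA was present in 3 of the 9 windows (Cpt1a, Acadm and Acadvl), beside 16.0% of all 27025 windows in the table. The direct repeat of this core motif with a spacing of 1 base, called DR1, to which PPAR and RXR bind as a pair, was searched with at most 2 mismatches; it was present in 0 of 9 windows and in 3.81% of all windows. The ERR element TCAAGGTCA, which contains the core motif, was present in 0 of 9 and in 0.407% of all. At such low shares 0 of 9 cannot set these windows apart from the rest, and bases beyond the windows were not searched. GGGCGG was present in 7 of 9 (35.9% of all), and CCAAT in 2, Cpt1a and Etfb (37.9% of all). The NRF-1 element was present in 1, Etfb (4.78% of all). The Hadha and Hadhb genes lie head to head with 272 bases between their starts, so their windows overlap. The only GGGCGG match in the Hadha window is a site also matched in the Hadhb window, so it counts for both.

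Cpt2, the carnitine palmitoyltransferase of the inner membrane, rose with pioglitazone. Its brighter probe set (95646_at) read 4553.2, 4689.9 and 6427.7 on vehicle replicates 1, 2 and 4, and 9833.8 and 8002.0 on the pioglitazone replicates. Rosiglitazone gave 6636.5, 5997.5 and 10137.3, and troglitazone 5460.9, 5940.1 and 7059.0. Both pioglitazone arrays lay above all vehicle arrays, whereas the other drugs overlapped vehicle through vehicle replicate 4. The log2 difference from vehicle was 0.95 ± 0.15 (SE) with pioglitazone, a fold of 1.93 with an adjusted p of 0.00665. It was 0.52 with rosiglitazone (adjusted p 0.0781) and 0.25 with troglitazone (adjusted p 0.693). Without pioglitazone replicate 1 the pioglitazone call was lost (adjusted p 0.0646) and the rosiglitazone difference passed (adjusted p 0.0491).

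A second Cpt2 probe set (161978_r_at) was dim and did not follow the brighter one. It read 111.0, 138.4 and 14.8 with vehicle and lay under the floor on all treated arrays, with 71.0 on rosiglitazone replicate 2 the highest. Its log2 differences, bounded by the floor, were −0.58, −0.50 and −0.50 with pioglitazone, rosiglitazone and troglitazone (adjusted p 0.511, 0.485 and 0.617). When all probe sets of a gene were averaged, the Cpt2 difference with pioglitazone was 0.18 (adjusted p 0.883).

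Cpt1a, the enzyme of the outer membrane that commits long-chain acyl groups to oxidation, passed with no drug. Vehicle arrays read 397.1, 420.8 and 546.6, and pioglitazone arrays 1026.8 and 720.7, with no overlap. Rosiglitazone gave 393.3, 610.3 and 658.7 and troglitazone 520.5, 375.2 and 621.0, both across the vehicle range. The pioglitazone difference was 1.08 ± 0.35 on the log2 scale, numerically the largest among the 9 genes with this drug, with a 95% interval of 0.34 to 1.83 and an adjusted p of 0.226. With rosiglitazone it was 0.26 (adjusted p 0.806) and with troglitazone 0.14 (adjusted p 0.981).

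Among the acyl-CoA dehydrogenases, Acadm, which acts on medium chains, rose with rosiglitazone. Its vehicle arrays lay close together at 6038.6, 5905.2 and 6593.5, and every treated array lay above them. Pioglitazone gave 6956.5 and 7403.3, rosiglitazone 8015.1, 8382.0 and 11887.2, and troglitazone 7135.3, 7717.9 and 9219.8. The log2 difference with rosiglitazone was 0.59 ± 0.12 (95% interval 0.33 to 0.85, adjusted p 0.0255). It was 0.33 with pioglitazone (adjusted p 0.450) and 0.37 with troglitazone (adjusted p 0.268). Rosiglitazone replicate 4 was the highest array, and the rosiglitazone difference was 0.46 within set 1 and 0.85 within set 2. The call was lost without any 1 of the vehicle or rosiglitazone arrays or without troglitazone replicate 4, with adjusted p between 0.0557 and 0.184. It was also lost after median centring (0.0780) or quantile normalisation (0.0610), and without both arrays that stood apart (0.0583).

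Acads, the short-chain enzyme, had 2 probe sets and passed with no drug. The brighter one (103401_at) read 1121.9, 1080.2 and 2019.6 with vehicle and 1971.7 and 2134.2 with pioglitazone, so vehicle replicate 4 lay within the pioglitazone range. Its log2 difference with pioglitazone was 0.84 ± 0.20 (adjusted p 0.0678), with rosiglitazone 0.46 (adjusted p 0.318) and with troglitazone 0.31 (adjusted p 0.716). The pioglitazone value passed without rosiglitazone replicate 2 (adjusted p 0.0416). The other probe set (161469_r_at) gave −0.18, 0.15 and −0.07 for the drugs in the same order, and its arrays overlapped across all groups.

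Acadl, the long-chain enzyme, varied widely within each drug group and passed with no drug. Vehicle arrays read 438.6, 546.0 and 499.5. Pioglitazone gave 447.1 and 1167.3, rosiglitazone 599.0, 566.7 and 1451.9, and troglitazone 510.0, 849.9 and 1283.4. All rosiglitazone arrays lay above vehicle, but with pioglitazone and rosiglitazone 1 array read far above the rest. Differences of 0.81, 0.68 and 0.74 with pioglitazone, rosiglitazone and troglitazone had adjusted p of 0.586, 0.569 and 0.654. Omitting 1 array moved them to between 0.12 and 1.501, 0.31 and 0.90, and 0.37 and 0.98; the pioglitazone value was 0.12 without pioglitazone replicate 2. The highest array of each drug, pioglitazone replicate 2 and replicate 4 of the other drugs, also had a high ratio of the 3′ to the 5′ beta-actin control probe set, 4.86, 3.74 and 3.79 beside 1.79 to 2.27 on the set 1 arrays other than pioglitazone replicate 2. Vehicle replicate 4 had a ratio of 3.90 and no high Acadl signal. A link between this ratio and the Acadl signal was not tested.

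Acadvl, the very-long-chain enzyme, could not be measured well. Its brighter probe set (161623_at) read 117.5, 44.5 and 139.7 with vehicle, 25.8 and 99.0 with pioglitazone, 378.9, 62.8 and 88.7 with rosiglitazone and 101.3, 45.4 and 97.0 with troglitazone. Every group had an array under the floor, and rosiglitazone replicate 1 stood alone. The log2 differences, −0.34, 0.34 and −0.25, had adjusted p of 0.872 or more. The other probe set (93334_at) lay between 15.0 and 224.0, mostly under the floor.

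Etfb, the flavoprotein subunit that takes electrons from these dehydrogenases, rose with pioglitazone by its brighter probe set. That probe set (96947_at) read 4176.8, 5236.1 and 7981.7 with vehicle and 6879.6 and 10059.8 with pioglitazone. Rosiglitazone gave 6481.5, 6080.6 and 13406.0, and troglitazone 5382.1, 5406.1 and 9525.7. Replicate 4 was the highest array of vehicle, rosiglitazone and troglitazone, and the groups overlapped. The log2 difference was 0.87 ± 0.18 with pioglitazone (fold 1.83, adjusted p 0.0269), 0.53 with rosiglitazone (adjusted p 0.137) and 0.22 with troglitazone (adjusted p 0.808).

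The Etfb call was lost under 5 of the 11 omissions of 1 array: vehicle replicate 1 (adjusted p 0.166), vehicle replicate 4 (0.0969), pioglitazone replicate 2 (0.161), rosiglitazone replicate 4 (0.0673) or troglitazone replicate 4 (0.0614). With the log2 beta-actin ratio as a covariate the pioglitazone difference was 0.69 (adjusted p 0.0690), and that with rosiglitazone passed at 0.57 (adjusted p 0.0483). The dimmer probe set (162144_at) pointed the other way, with 711.9, 718.0 and 452.5 with vehicle, 234.1 and 563.8 with pioglitazone, 590.8, 614.8 and 296.3 with rosiglitazone and 371.6, 511.4 and 183.6 with troglitazone. Its log2 differences were −1.08, −0.37 and −0.91, with adjusted p of 0.392, 0.782 and 0.494. Averaging both probe sets left a pioglitazone difference of −0.11.

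**Figure D2:**
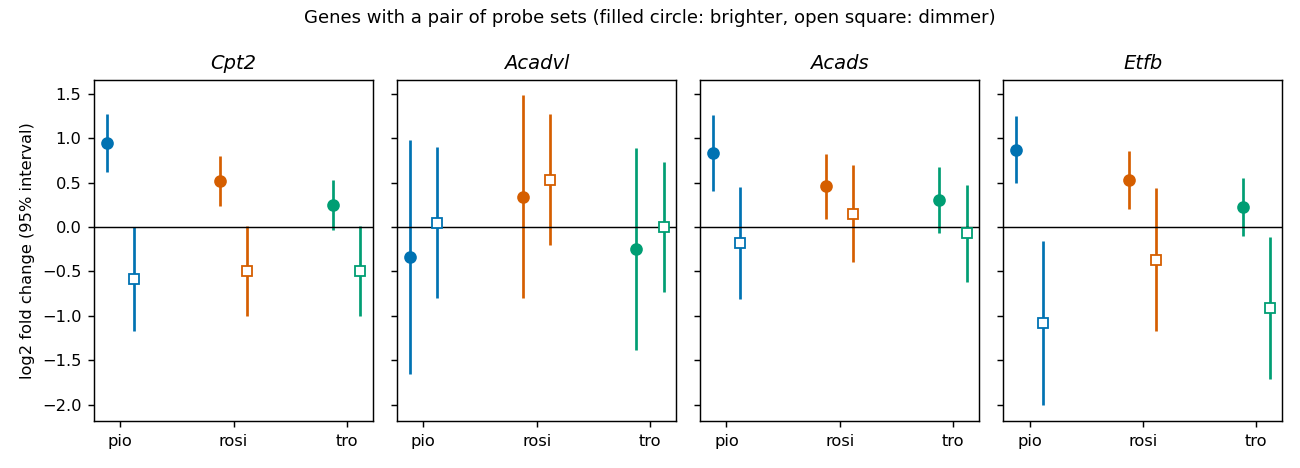
Log2 difference from vehicle (vertical axis, with 95% intervals) of the brighter (filled circle) and the dimmer (open square) probe set of Cpt2, Acadvl, Acads and Etfb for each drug. The pairs for Etfb and Cpt2 lie on opposite sides of 0 with every drug. With pioglitazone Etfb is at 0.87 and −1.08 and Cpt2 at 0.95 and −0.58.

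Hadhb, the beta subunit of the trifunctional protein, rose with every drug and its vehicle arrays lay close together. Vehicle read 8231.6, 8023.9 and 8307.2. Pioglitazone gave 16425.5 and 12432.5, rosiglitazone 17000.5, 16074.1 and 17930.0, and troglitazone 16317.1, 15211.3 and 15629.1. No treated array came near the vehicle range, and the lowest, pioglitazone replicate 2, differed from its partner by more than the troglitazone or rosiglitazone arrays differed among themselves. Mean signals were 8188 ± 147 (SD, n = 3) with vehicle, 17002 ± 928 (n = 3) with rosiglitazone and 15719 ± 558 (n = 3) with troglitazone.

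The Hadhb log2 difference was 1.05 ± 0.12 with rosiglitazone (fold 2.07, 95% interval 0.79 to 1.32, adjusted p 0.000426). With troglitazone it was 0.94 ± 0.12 (fold 1.92, 95% interval 0.67 to 1.21, adjusted p 0.00059), and with pioglitazone 0.82 ± 0.14 (fold 1.76, 95% interval 0.51 to 1.13, adjusted p 0.0102). Within set 1 the rosiglitazone and troglitazone values were 1.02 and 0.95, and within set 2 they were 1.11 and 0.91. No omission of 1 array ended either of those calls. Omitting vehicle replicate 1 (adjusted p 0.0573), vehicle replicate 2 (0.0655) or pioglitazone replicate 1 (0.0980) ended the pioglitazone call.

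Acaa2, the thiolase of the last step, also rose with every drug. Its signals were 9416.7, 8194.9 and 10487.7 with vehicle and 15996.0 and 19482.6 with pioglitazone. Rosiglitazone gave 14283.8, 13698.4 and 20085.7, and troglitazone 12844.3, 12222.3 and 16528.8. All 8 treated arrays lay above all vehicle arrays, and the troglitazone arrays of set 1 were the nearest to them. The log2 difference was 1.05 ± 0.14 with pioglitazone (fold 2.07, adjusted p 0.00143), 0.76 ± 0.12 with rosiglitazone (fold 1.69, adjusted p 0.00445) and 0.56 ± 0.12 with troglitazone (fold 1.47, adjusted p 0.0366). Within set 1 rosiglitazone gave 0.67 and troglitazone 0.51, and within set 2 they gave 0.94 and 0.66.

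The Acaa2 call with pioglitazone held under all 11 omissions of 1 array. Omitting replicate 4 of vehicle (adjusted p 0.0568) or of rosiglitazone (0.0516) ended the rosiglitazone call. With troglitazone it was lost under 8 of 11, those of any vehicle or troglitazone array and of rosiglitazone replicates 1 and 4, with adjusted p between 0.0556 and 0.244.

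**Figure D3:**
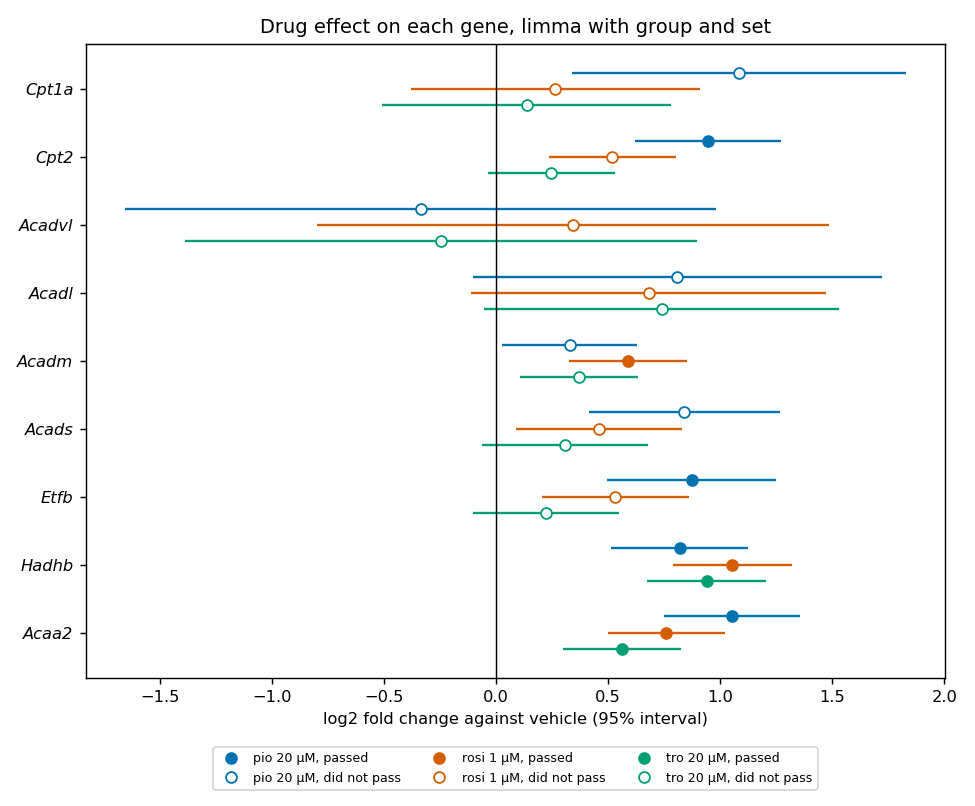
Log2 difference from vehicle (horizontal axis, with 95% intervals) of the 9 genes for pioglitazone, rosiglitazone and troglitazone; filled points passed an adjusted p of 0.05 and open points did not. Hadhb and Acaa2 are filled for all 3 drugs, and Acadvl has the widest intervals.

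No drug effect on these genes was shown to differ between the sets. For rosiglitazone and troglitazone the test of set 2 against set 1 gave an adjusted p of 1 for each of the 13 probe sets, and 0 of 11739 probe sets passed in limma (437 and 288 at an unadjusted p under 0.05). Set 2 has 1 array per group, which limits its precision. The rosiglitazone difference of Acadl was 0.25 within set 1 and 1.54 within set 2, and that of Acadvl, near the floor, was 0.84 and −0.66.

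Arrays were also compared without the model. Signals of treated and vehicle arrays did not overlap, with the drug higher, for 5 of the 13 probe sets with pioglitazone (Cpt1a, Cpt2, Acaa2, Hadhb and Acadm), beside 9.07% of all tested probe sets. With rosiglitazone there were 4 (Acaa2, Hadhb, Acadl and Acadm), beside 4.78%, and with troglitazone 3 (Acaa2, Hadhb and Acadm), beside 4.77%.

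Troglitazone and pioglitazone were given at the same dose and time, which allows their readouts to be compared; rosiglitazone was given at a lower dose and is not compared with them. Troglitazone bears a chroman group of the vitamin E type, and pioglitazone an ethyl-substituted pyridine, on the same thiazolidinedione head. None of the 9 genes differed between them at an adjusted p under 0.05, where 0.0341% of all tested probe sets (4 of 11739) did. At an unadjusted p under 0.05, 5 were lower with troglitazone (Cpt1a, Cpt2, Acaa2, Etfb and Acads), beside 3.16% of all tested probe sets. The median difference over the 9 genes was −0.49, beside 0.03 over all genes.

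Cpt2 came nearest to a difference: troglitazone minus pioglitazone was −0.70 ± 0.15 on the log2 scale, or 1.62-fold lower, with a 95% interval of −1.03 to −0.37 and an adjusted p of 0.257. All troglitazone arrays of this Cpt2 probe set, the brighter one, reached up to 7059.0 and lay below both pioglitazone arrays, 8002.0 and above. The dimmer Cpt2 probe set, under the floor on all these arrays, gave 0.08. The alternatives tried put Cpt2 between −0.85 and −0.31. Etfb gave −0.65 (95% interval −1.03 to −0.27, adjusted p 0.358), which was −0.38 without pioglitazone replicate 2 and −0.24 for the mean of both probe sets. Acaa2 gave −0.49 (−0.80 to −0.19, adjusted p 0.442). For Cpt1a the difference was −0.95 (−1.69 to −0.20) and for Acads −0.53 (−0.96 to −0.10), both with an adjusted p of 0.650. The dimmer Acads probe set gave 0.11.

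For the other genes the difference was near 0 with intervals that leave room for both signs. Hadhb gave 0.12 (−0.19 to 0.43) and Acadm 0.04 (−0.26 to 0.34), so a change of over 0.43 either way lay outside both intervals. Acadl (−0.07, with −0.98 to 0.84) and Acadvl (0.09, with −1.23 to 1.41) were too variable to bound closely. These unadjusted intervals do not show that the drugs act alike on any gene.

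**Figure D4:**
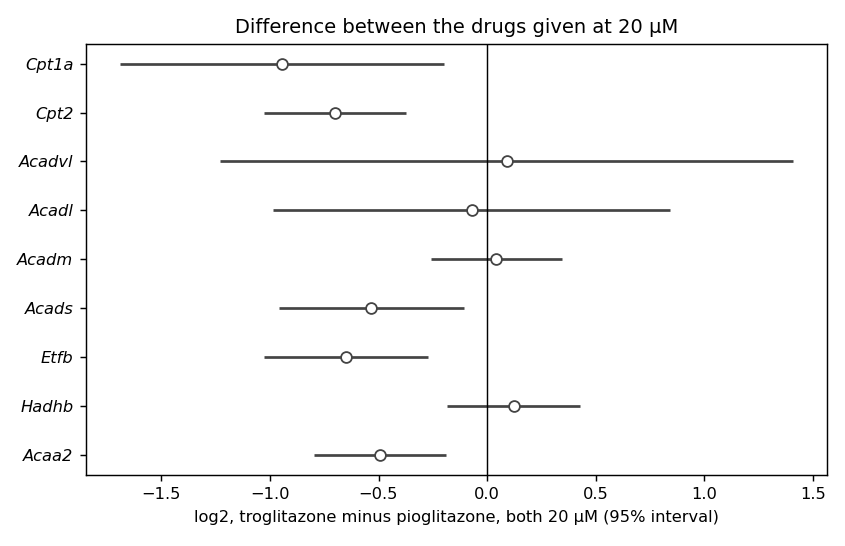
Troglitazone minus pioglitazone, both at 20 µM for 24 h, on the log2 scale (horizontal axis, with 95% intervals) for the 9 genes. The intervals of Cpt1a, Cpt2, Acads, Etfb and Acaa2 lie below 0, from −0.95 for Cpt1a to −0.49 for Acaa2, but no adjusted p was under 0.05.

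Across the 11 arrays the genes followed one another unevenly. Each gene's log2 signal, minus its mean in its set and divided by its SD, was averaged over the 9 genes into a mean profile. That profile was −0.90, −0.93 and −0.81 on the vehicle arrays, 0.57 and 0.84 with pioglitazone, 0.44, 0.21 and 0.68 with rosiglitazone, and −0.07, −0.16 and 0.13 with troglitazone. The vehicle arrays had the lowest values. Since each set mean is removed and set 2 lacks pioglitazone, values of the sets are not on quite the same zero. Pearson's r of a gene with the mean of the other 8 was 0.98 for Acaa2, 0.86 for Etfb, 0.84 for Cpt2 and 0.81 for Acads. It was 0.75 for Hadhb, 0.73 for Acadm, 0.53 for Acadl, 0.50 for Cpt1a and −0.12 for Acadvl. These are descriptions over 11 arrays that share treatments and scaling.

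**Figure D5:**
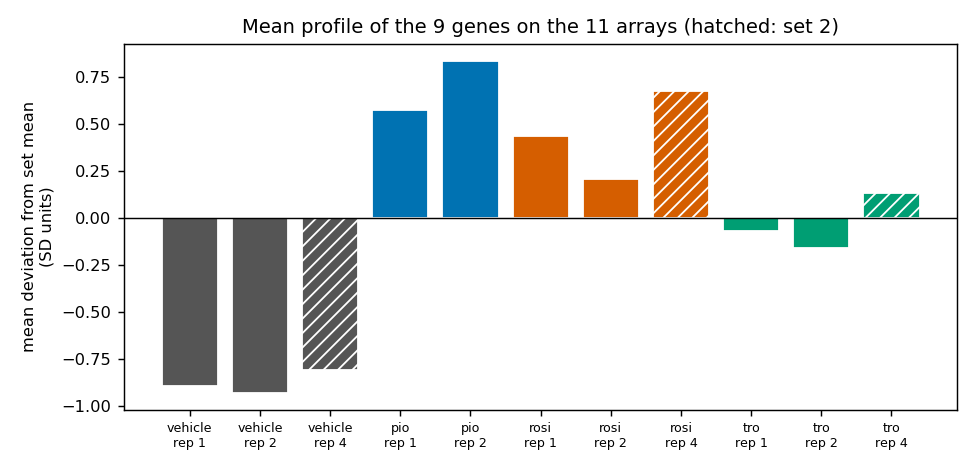
Mean over the 9 genes of the standardised deviation from the set mean (vertical axis, SD units) on each of the 11 arrays; hatched bars are set 2. The 3 vehicle arrays lie between −0.93 and −0.81, the troglitazone arrays between −0.16 and 0.13 and the others between 0.21 and 0.84.

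The 8 genes outside these 10 whose signals were most like that profile had r between 0.957 and 0.981 over the 11 arrays. In order they were Uqcrh (a subunit of respiratory complex III), Mdh2 (mitochondrial malate dehydrogenase), Ndufb10 (complex I), Atp5o (ATP synthase), Uqcrb (complex III), Ndufa5 (complex I), Ech1 (a dienoyl-CoA isomerase) and Ogdh (a subunit of oxoglutarate dehydrogenase). Uqcrh read 5893.8, 5181.7 and 8412.1 with vehicle, 9734.9 and 11411.8 with pioglitazone, 9785.6, 8995.0 and 13077.8 with rosiglitazone and 8248.9, 7437.9 and 10894.9 with troglitazone. Vehicle replicate 4 was the one vehicle array inside the treated range. They were chosen for this likeness, so their levels are a description.

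Of 16 further genes listed for mitochondrial fatty acid oxidation 12 were tested; 0 passed with pioglitazone, and 1, Slc25a20, rose with rosiglitazone and with troglitazone. Slc25a20, the carnitine-acylcarnitine carrier, read 632.0, 763.5 and 514.3 with vehicle, 1173.6 and 1317.1 with pioglitazone, 1293.7, 1359.6 and 1660.6 with rosiglitazone and 1171.7, 1167.6 and 1245.8 with troglitazone. Every treated array lay above every vehicle array. The log2 difference was 0.98 with pioglitazone (adjusted p 0.0939), 1.19 ± 0.21 with rosiglitazone (adjusted p 0.0102) and 0.93 ± 0.21 with troglitazone (adjusted p 0.0481). Omitting replicate 4 of vehicle (adjusted p 0.0960) or of rosiglitazone (0.106) ended the rosiglitazone call, and the troglitazone call was kept under 1 of 11 omissions, that of pioglitazone replicate 1.

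None of the other listed enzymes passed. Crat, carnitine acetyltransferase, gave 0.54, 0.41 and 0.16 with pioglitazone, rosiglitazone and troglitazone, and its dimmer probe set 0.46, 0.34 and −0.06. Hadh, the dehydrogenase for shorter hydroxyacyl chains, gave 0.54, 0.40 and 0.10. Echs1, the short-chain enoyl-CoA hydratase, had values below 0 with each drug, −0.37, −0.43 and −0.36, and Acad9 gave 0.09, −0.10 and −0.81. The medians of the 12 genes were 0.38, 0.39 and 0.17, and 11, 10 and 10 of them had values above 0. Of all 7962 genes tested, 43.5%, 49.2% and 47.2% did. At an unadjusted limma p under 0.05, 5, 6 and 3 of the 12 were higher and 1, 1 and 2 lower. Of 4 acyl-CoA dehydrogenases of amino acid breakdown, 2 were tested and none passed: Ivd (isovaleryl-CoA) gave −0.39, −0.78 and −0.67 and Gcdh (glutaryl-CoA) −0.08, −0.65 and −0.52. A much dimmer Gcdh probe set gave −0.39, 1.53 and −0.20 and did not pass either.

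Of 16 listed regulators of the pathway 11 were tested, and 1 rose and 1 fell with pioglitazone and with rosiglitazone, and 1 rose and 2 fell with troglitazone. Esrra, a nuclear receptor that acts on oxidative genes, read 1930.3, 2119.8 and 1931.5 with vehicle, 4186.5 and 3736.5 with pioglitazone, 3651.6, 3532.6 and 3331.1 with rosiglitazone and 3488.7, 3588.9 and 3378.4 with troglitazone. The groups were far apart, with log2 differences of 0.96 ± 0.15 (adjusted p 0.00634), 0.81 ± 0.13 (adjusted p 0.00467) and 0.81 ± 0.13 (adjusted p 0.00406). The troglitazone call was lost without troglitazone replicate 4 (adjusted p 0.0512), and a dimmer Esrra probe set passed with no drug, at 0.37, 0.14 and 0.41. The mean of both probe sets lost the call with each drug (adjusted p 0.158, 0.253 and 0.127), as did no set term, set 1 alone and no intensity trend.

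Pparg, the receptor of the drugs themselves, fell with each. It read 1931.3, 1728.7 and 2886.1 with vehicle, 462.2 and 511.4 with pioglitazone, 697.9, 665.0 and 1053.7 with rosiglitazone and 542.9, 472.7 and 737.9 with troglitazone. Its log2 differences were −1.93 ± 0.24 (adjusted p 0.000901), −1.43 ± 0.21 (adjusted p 0.00204) and −1.89 ± 0.21 (adjusted p 0.000133). The rosiglitazone call was lost with no set term (adjusted p 0.0503), in set 1 alone (0.106) and with no intensity trend (0.0713), and the pioglitazone call when the compared groups alone were fitted (0.0971). Nrip1, a corepressor of nuclear receptors, fell with troglitazone (−1.27 ± 0.27, adjusted p 0.0291), a call lost without any 1 of the vehicle or troglitazone arrays or rosiglitazone replicate 4 (adjusted p 0.0561 to 0.172). Nrip1 gave −0.99 with pioglitazone and −0.95 with rosiglitazone without passing. Ppara (−0.83, −0.36 and −1.23), Ppard (−0.32, −0.37 and −0.50), Rxra (0.67, 1.01 and 1.09) and Rxrb (1.13, −0.63 and 0.49) passed with no drug. A dimmer Rxra probe set did not show these higher values, at −0.01, −0.18 and −0.02.

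Peroxisomes hold a second oxidation pathway, and 9 of 13 listed genes of it were tested. With pioglitazone 2 rose, with rosiglitazone 4 and with troglitazone 2, and none fell. Acaa1b, a peroxisomal thiolase, read 1519.6, 1630.7 and 3087.1 with vehicle, 8742.3 and 7243.0 with pioglitazone, 6905.3, 5860.8 and 10943.8 with rosiglitazone and 7057.2, 5959.4 and 10710.5 with troglitazone. Its log2 differences of 2.29 ± 0.16, 1.95 ± 0.14 and 1.96 ± 0.14 (adjusted p 4.14e-06, 1.72e-06 and 1.62e-06) exceeded those of each of the 9 mitochondrial genes with the same drug. A dimmer Acaa1b probe set gave 0.64 (adjusted p 0.427), 1.16 (adjusted p 0.0195) and 1.21 (adjusted p 0.0142), and the mean of both gave 1.46 with pioglitazone. Acaa1a rose by 1.00, 0.63 and 0.62 (adjusted p 0.00768, 0.0444 and 0.0496); it is a near-identical copy of Acaa1b, so its probes may share signal with it.

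Hsd17b4, the peroxisomal multifunctional enzyme, and Scp2, the carrier and thiolase, rose with rosiglitazone (0.68, adjusted p 0.0454, and 0.89, adjusted p 0.00698). Without passing, Hsd17b4 gave 0.80 with pioglitazone (adjusted p 0.0524) and 0.38 with troglitazone (0.494). Scp2 likewise gave 0.74 with pioglitazone (0.0669) and 0.62 with troglitazone (0.0673). The Hsd17b4 call was kept under 2 of 11 omissions of 1 array, Acaa1a's with rosiglitazone under 3 and with troglitazone under 1, and Acaa1a's with pioglitazone ended when vehicle replicate 2 was omitted (adjusted p 0.0641). Omitting vehicle replicate 4 ended that of Scp2 (adjusted p 0.0641), whose dimmer probe set gave 0.64 (adjusted p 0.397); the mean of its probe sets gave 0.76 (adjusted p 0.0651). Ehhadh (−0.07, 0.70 and 0.40), Abcd3 (0.25, −0.12 and −0.11), Acot8 (−0.18, 0.34 and −0.48) and Amacr (−0.13, 1.37 and −0.13) passed with no drug. Of 4 ketone body genes 1 was tested, Oxct1, which gave −0.46, −0.34 and −0.22 and did not pass.

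The cells carried adipocyte transcripts: 7 of 10 listed markers had a probe set, and all 7 (among them Adipoq, Fabp4, Lpl and Cidec) lay above the array's median signal on every array. Their summed signal was 94422 to 119026 with vehicle, 102403 to 118534 with pioglitazone, 98634 to 135771 with rosiglitazone and 81643 to 110862 with troglitazone. Of these 7, Cidec rose with each drug, and Retn fell with rosiglitazone and with troglitazone. Of 8 preadipocyte and fibroblast markers, 5 (Col1a2, Fn1, Dlk1, Col3a1 and Col1a1) also lay above the median on every array. None of the 8 was under the floor on every array. They summed to 11112 to 12275 with vehicle and to 7014 to 7222, 7520 to 8971 and 5350 to 8194 with the drugs in that order. Of these 8, 1 (Fn1) fell with pioglitazone and with rosiglitazone, 3 (Fn1, Col1a1 and Col3a1) fell with troglitazone, and none rose. That summed signal was lower on every treated array than on every vehicle array, and its part in the values of the oxidation genes was not tested; fewer cells of a type and less RNA per cell cannot be told apart in bulk RNA. Of 6 listed brown adipocyte markers 5 were tested. Cidea rose with rosiglitazone and troglitazone, no other passed with any drug, and none passed with pioglitazone. Only Cidea lay above the median on every array. Among 8 listed macrophage markers Csf1r and Cd14, and among 8 of muscle Myog, lay above the median on every array; no endothelial or hepatocyte marker did. Of these Cd14 fell with troglitazone.

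Deposited signals had been scaled to a common trimmed mean (500.289 to 500.433), and array medians ran from 163.1 to 244.2. Pioglitazone replicate 2 stood apart by its beta-actin ratio, and rosiglitazone replicate 2, whose correlation with each other array had a median of 0.833. When both were left out, 3 genes were called with pioglitazone (Cpt2, Acaa2 and Hadhb), 2 with rosiglitazone and 2 with troglitazone (Acaa2 and Hadhb in each). The balance of higher to lower calls over all probe sets followed the scaling: with pioglitazone 74 were higher and 32 lower as deposited, 39 and 41 after quantile normalisation and 139 and 21 after median centring. Median centring moved the median difference of all probe sets with pioglitazone from −0.08 to 0.11. All signs of the drug differences from vehicle of the 9 genes were kept under both scalings.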

How the data were processed

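Total RNA of 11 samples was measured on one-colour oligonucleotide arrays, 1 array each. The deposited values are signal intensity on a linear scale, which the authors had scaled to a common trimmed mean (2% off each end); the array software and probe summary: not given in the sources used here. A floor of 73.7 (25th percentile over all arrays) replaced lower values before log2 was taken. After 66 control probe sets were left out, 12422 remained, and 11739 above the floor on at least 2 arrays were tested. The annotation table pairs 10833 with 1 gene. With limma 3.58.1 in R 4.3.3, a model of group and set was fitted to all 11 arrays (6 residual degrees of freedom), with an intensity trend, two-sided tests and Benjamini-Hochberg adjustment over all tested probe sets. The number of arrays limits the precision. A gene is represented by its brightest tested probe set. Every probe set of every member is given; of each further list, genes that passed with any drug and up to 4 that did not, in list order, are named; the 8 genes most correlated with the mean profile are named. The members and lists were chosen with earlier results of these data known. Replicate numbers were checked as pairs within set 1. Differences between replicates 1 and 2 correlated between groups at −0.044 to 0.010 over all tested probe sets. These values show no pattern shared by same-numbered arrays across probe sets. They cannot tell whether such arrays were handled together, and set 2 was not examined.

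The alternatives tried were median centring, quantile normalisation, an added constant, floors at the 50th or the 10th percentile, no set term, no filter, no intensity trend, set 1 alone, a replicate block, a fit of the compared groups alone, the beta-actin ratio as a covariate, leaving out both arrays that stood apart, the mean of a gene's probe sets, and leaving out each array.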

Additional observations from a re-analysis of the deposited data

How the results depend on the processing

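The number of genes called kept to within 1.5 times of its value for vehicle comparisons under median centring, both other floors, the added constant, the actin covariate and the omission of both arrays that stood apart, though Acadm lost its rosiglitazone call under median centring and that omission, and Etfb its pioglitazone call under the covariate and that omission. Quantile normalisation left 2 with pioglitazone and 1 with troglitazone (0.681% and 1.19% of all tested), and no filter 1 with troglitazone (0.716%). No set term left 0, 1 and 0 with pioglitazone, rosiglitazone and troglitazone, set 1 alone 1, 1 and 1, and no intensity trend 0, 0 and 0. The shares of all tested probe sets called also fell, from 0.903%, 1.35% and 1.33%. They were 0.213%, 0.341% and 0.469% with no set term and 0.295%, 0.26% and 0.399% in set 1 alone. With no intensity trend they were 0.0511%, 0.0511% and 0.162%. Fitting only vehicle and pioglitazone arrays left 0 with pioglitazone (0.0282% of all tested), and the mean of all probe sets of a gene left 2 (0.964%). Omitting 1 array gave 2 to 5 with pioglitazone, 1 to 4 with rosiglitazone and 1 to 2 with troglitazone. Troglitazone against pioglitazone gave 0 under every alternative. With the replicate block the counts were 4, 3, 2 and 0, as without it; among the further genes the calls of Slc25a20 (adjusted p 0.0591) and Uqcrb (0.0509) with troglitazone were lost. Acads passed with pioglitazone after median centring (adjusted p 0.0180) and with the floor at the 50th percentile (0.0492). The floor limits what can be seen in Acadvl and the dimmer Cpt2 probe set.

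Some log2 differences changed sign, none of them passing there. With the mean of all probe sets, Etfb was −0.11 with pioglitazone and −0.34 with troglitazone, and Cpt2 was −0.13 with troglitazone. Omitting 1 array put Acadvl between −0.46 and 0.83 with rosiglitazone and between −0.55 and 0.073 with troglitazone. For troglitazone minus pioglitazone, Hadhb was −0.057 with the actin covariate, −0.073 without both arrays and −0.079 to 0.32 with 1 array omitted. Acadl was 0.19 without the set term, 0.54 with the covariate, 0.64 without both arrays and −0.76 to 0.62 with 1 omitted. Acadm was −0.030 after median centring and −0.0025 to 0.087 with 1 omitted, and Acadvl −0.12 to 0.30. The mean of probe sets brings in dimmer probe sets by construction; other causes were not tested.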
